A study of Caenorhabditis elegans with 12 samples.

Results

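cel-miR-34, cel-miR-71, cel-miR-238 and cel-miR-239a are microRNAs of Caenorhabditis elegans known for roles in stress responses and lifespan. They were taken by probe name, with earlier results of these data known. They make up 4 of the 114 C. elegans probes on the arrays, each printed as 3 spots. Each 2-colour NCode microRNA array set a strain that models Parkinson's disease against the wild type N2, to ask which microRNAs differ in that model. The strains were worms with a human alpha-synuclein A53T transgene (4 arrays), the cat-1(e1111) mutant CB1111 (3 distinct arrays) and the pdr-1(gk448) mutant VC1024 (4 arrays), each genotype represented by 1 strain. All worms, N2 included, were synchronized, fed OP50 bacteria at 20 °C and taken at larval stage 4, and small RNA under 200 nt was labelled. The promoter that drives the transgene is not given in the sources used here. cat-1 encodes the vesicular transporter for dopamine and other monoamines, and pdr-1 is the worm orthologue of parkin, a ubiquitin ligase mutated in familial Parkinson's disease.

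A microRNA guides an Argonaute protein to partly complementary sites in messenger RNAs, which lowers their translation or stability. In worms, miR-34 belongs to a family conserved in mammals, where p53 induces it after DNA damage, and its loss in worms alters survival of radiation and of heat and oxidative stress. miR-71 promotes long life, acting in part in neurons and through the insulin signalling pathway. miR-238 and miR-239a are relatives of the same microRNA family with opposite reported effects: animals without miR-238 live shorter, while loss of the miR-239a locus was linked to longer life and better stress survival.

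The labels give Alexa Fluor 3 for N2 and Alexa Fluor 5 for the strain throughout, with no dye swap, so a dye bias of a probe and a difference between strain and N2 cannot be told apart. Ratios below are strain over N2. That direction is likely rather than stated, since it rests on which channel the labels list before the other. For pdr-1 the direction is not settled. Its replicates 1 and 4 correlated at -0.57 over 14 probes, which are not independent, although the dyes were the same. Over 31 probes the pair of replicates 3 and 4 had r = 0.42, and the remaining pdr-1 pairs ran from 0.04 to 0.19. With its sign turned, as in some results below, replicate 4 would run against replicate 3. Which pdr-1 array is reversed, if any, was not tested. For cat-1, replicates 3 and 4 had identical scanner files, and these were counted as 1 array. The arrays differed widely in yield, with 28 to 133 of 342 C. elegans spots giving a signal, fewest on pdr-1 replicate 1 (28) and alpha-synuclein replicate 4 (31). They differed in channel balance as well, and the median raw log2 ratio ran from -0.18 on alpha-synuclein replicate 1 to 4.57 on alpha-synuclein replicate 3. Precision is limited by how few arrays measured each microRNA.

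The 4 microRNAs were seen on some arrays of a strain and not on others. A signal above 0 in at least 1 channel was recorded at 43 of their 132 spots (32.6%), against 906 of 3762 (24.1%) for all C. elegans probes and 837 of 1650 (50.7%) for the 50 probes tested. miR-71 was detected most widely, at 14 of 33 spots in the strain channel on 7 of 11 arrays. miR-239a followed with 12 spots on 6 arrays, miR-238 with 9 on 4 and miR-34 with 8 on 5. Detection followed the yield of the array: pdr-1 replicate 3, with the most C. elegans spots (133), gave a signal at 11 member spots, and pdr-1 replicate 1 and alpha-synuclein replicate 4 gave none. Whether a missing signal reflects the worms or the array was not tested.

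**Figure D1:**
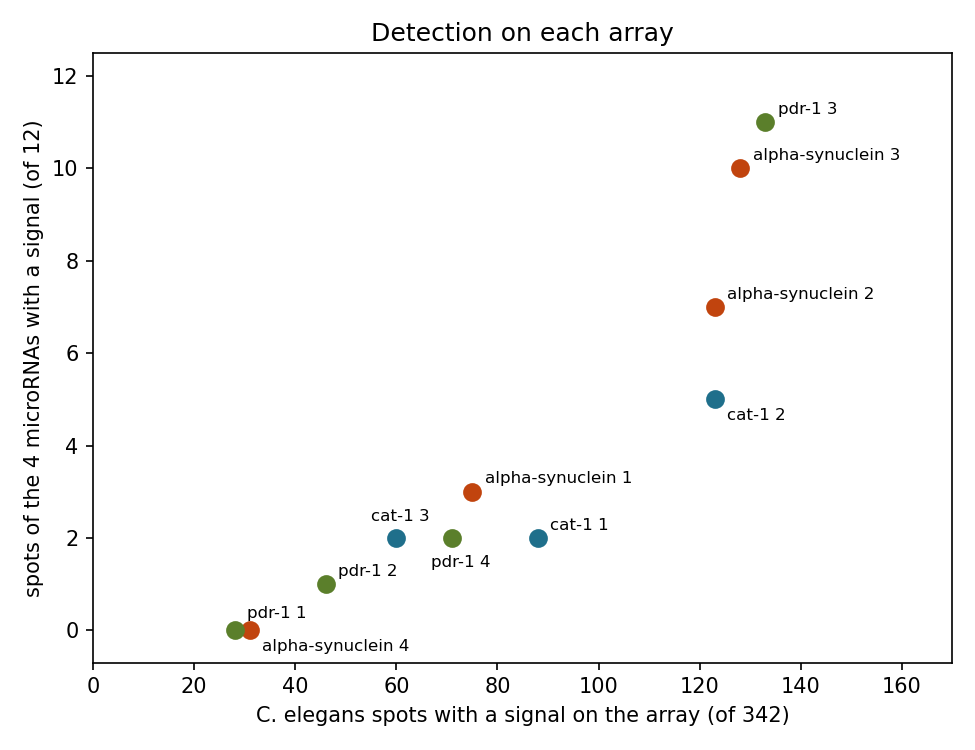
Each point is 1 of the 11 distinct arrays, coloured by strain and named by strain and replicate. The x axis counts C. elegans spots with a signal (of 342), the y axis spots of the 4 microRNAs with a signal (of 12), and member spots run from 0 on pdr-1 replicate 1 and alpha-synuclein replicate 4 to 11 on pdr-1 replicate 3.

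Detection in N2 was almost the same as in the strains. The N2 channel gave 7, 13, 8 and 11 spots for miR-34, miR-71, miR-238 and miR-239a, in each case 1 fewer than the strain channel. The 4 spots with a strain signal and no N2 signal, 1 per microRNA, all lay on alpha-synuclein replicate 3. That array held 45 such spots among all C. elegans probes, against 0 to 4 on every other array, and its median N2 signal was the lowest of all, at 108923. These 4 spots had strain signals of 3405748 for miR-34, 2594631 for miR-71, 2781064 for miR-238 and 985953 for miR-239a, and no ratio.

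At every spot with both signals the strain was the brighter channel before normalization, in 39 of 39 member spots. The same held for 90.8% of all C. elegans spots, and by strain for 16 of 16 member spots against 84.2% of all spots on alpha-synuclein arrays, 9 of 9 against 89.1% on cat-1 arrays and 14 of 14 against 100% on pdr-1 arrays. Among probes measured on at least 2 arrays of a strain, the deposited signals of strain and N2, averaged over spots on each array, did not overlap for 4 of 4 members in alpha-synuclein, against 38.8% of all such probes. They did not overlap for 0 of 2 members in cat-1 (19.4%) and for 2 of 2 in pdr-1 (94.7%). The alpha-synuclein shares over all probes are not matched to the arrays that measured the members. Replicates 2 and 3 held 7 and 6 of the 16 member spots, and 98.4% and 100% of all their spots were brighter in the strain. On replicate 1, with 3 member spots, this was 44%. The pdr-1 counts lie at the background of their arrays, and the raw brightness of the strain channel was therefore read only after normalization within each array.

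**Figure D2:**
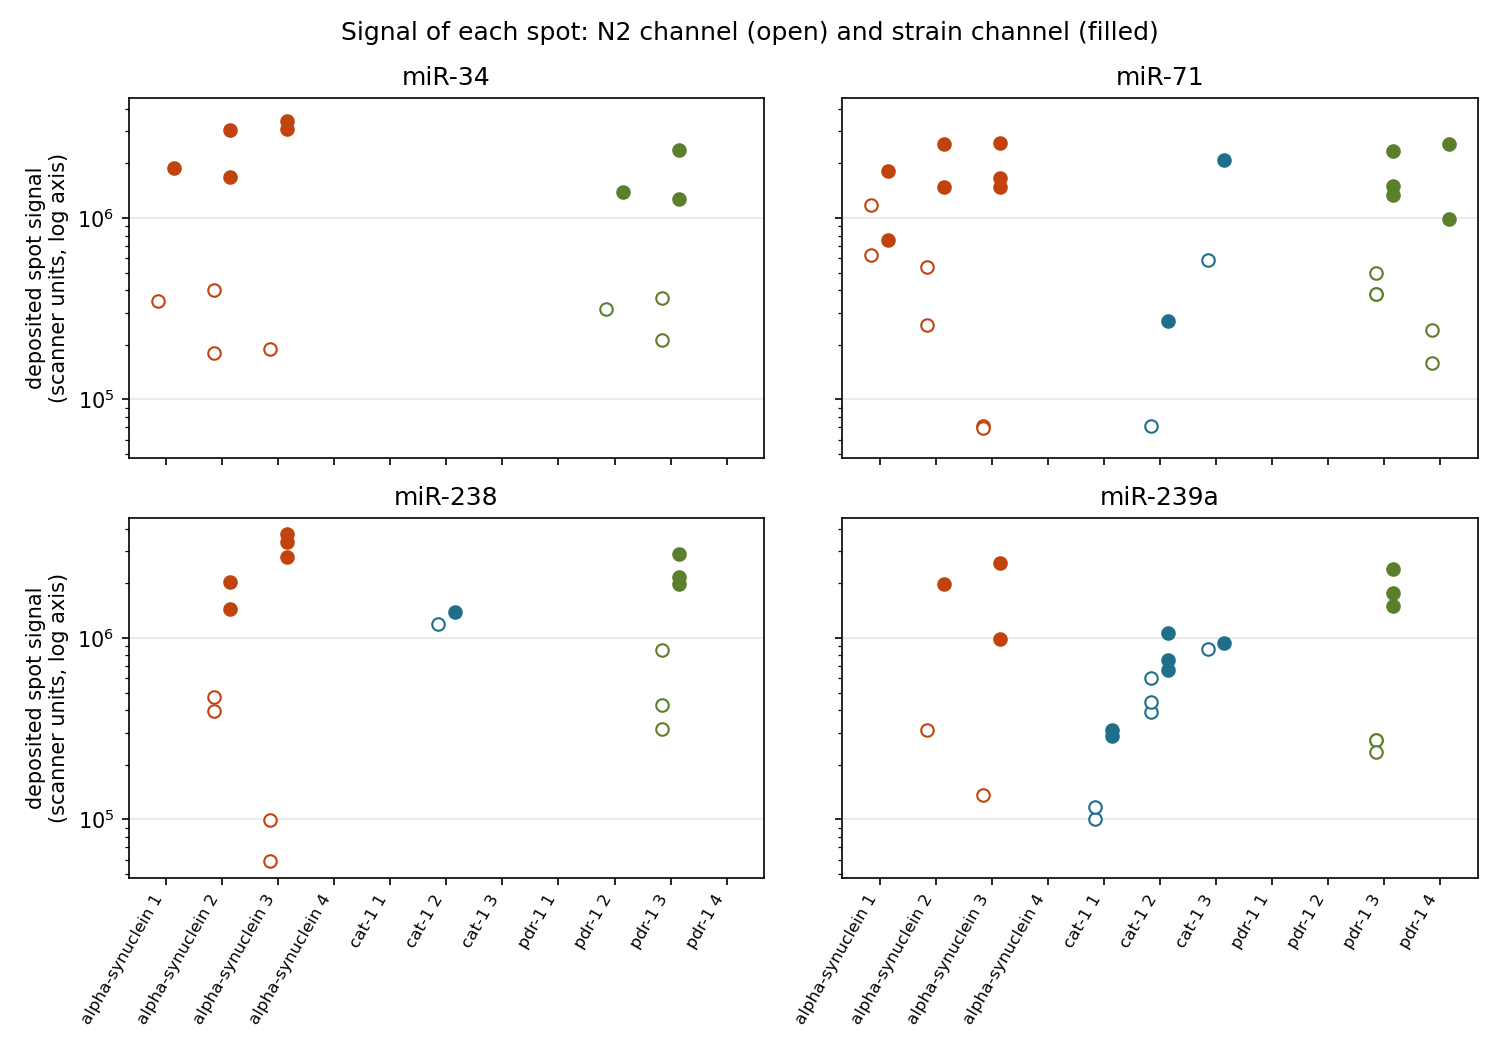
Deposited signal of member spots above 0, in scanner units on a log axis, by array, with N2 open and the strain filled. Spots with the scanner's S flag are not drawn. On alpha-synuclein replicate 3 the 4 spots with no N2 signal appear as filled points only, and miR-34 has no point on the cat-1 arrays.

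miR-34 was the only member with a change past the threshold, in the alpha-synuclein strain, and its arrays there disagreed. On replicate 1 its spot read 349332 in N2 and 1881887 in the strain. On replicate 2 the spots read 179559 and 402872 in N2 against 1688869 and 3059567 in the strain. On replicate 3 a spot read 189046 against 3079822, and another gave a strain signal of 3405748 alone. The strain's signals lay above those of N2 on all 3 arrays that measured the microRNA, and replicate 4 gave no signal. The raw log2 ratios were 2.43, 3.08 and 4.03 on replicates 1, 2 and 3. After loess within arrays they became 2.96, 1.06 and -0.83, so that the order of the 3 arrays was turned round. miR-34 had the highest ratio of 50 probes on replicate 1, ranked 3 of 53 on replicate 2 and 39 of 45 on replicate 3.

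The mean log2 change of miR-34 in the alpha-synuclein strain was 1.06 ± 0.37 (SE, n = 3 arrays; 95% interval 0.33 to 1.79), a 2.09-fold higher level (limma, adjusted p = 0.0456). In this comparison 5 of 50 probes passed (10%), 2 of them higher (4%). The value lay above 0 on 2 of 3 arrays. The SD between its 3 arrays was 1.89, far above the SD of 0.643 that limma assigned to all probes, and its own standard error was 1.09. The call was lost in 9 of 11 fits that left out 1 array. Without replicate 1 the change itself fell to 0.12 (adjusted p = 0.861), without replicate 3 it was 2.01 (adjusted p = 0.0368), and without replicate 2 it kept its size at 1.06 but not its call (adjusted p = 0.448). Of the 8 other arrays, which gave no miR-34 ratio in this strain, leaving out any but pdr-1 replicate 1 also ended the call, at an unchanged 1.06 (adjusted p = 0.0501 to 0.0791), through the spread and the probes tested. A plain test per probe gave an adjusted p of 0.515. The authors' deposited table lists 2.66 on replicate 1, 2.62 and 1.47 on replicate 2 and -0.63 on replicate 3, the order seen after loess, and limma on that table gave 1.36 (adjusted p = 0.144). On replicates 1 and 3 these are the same scanner ratios less a constant for the array, so they are no second source. The replicate 2 column does not match its scanner file (r = 0.721), nor does the cat-1 replicate 4 column, and that fit used both.

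**Figure D3:**
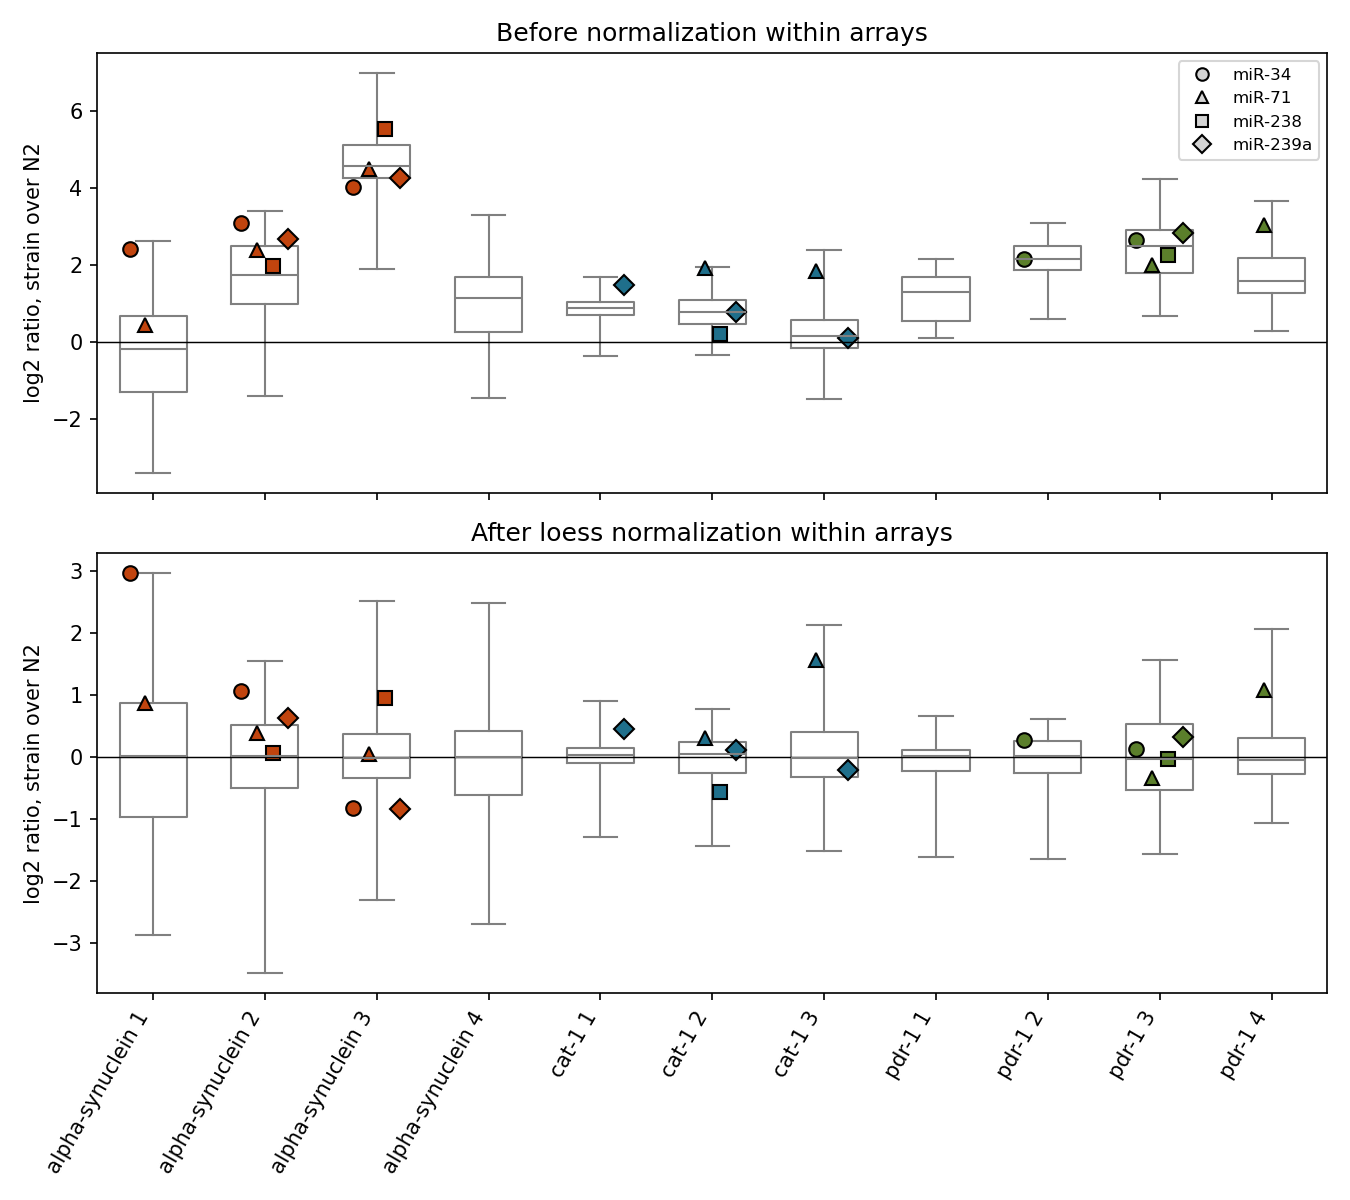
Log2 ratio of strain over N2 on each array before (top) and after (bottom) loess within arrays, with 1 symbol per member. Boxes show the quartiles and whiskers the range of all C. elegans spots with a ratio on that array. Symbols are means over the spots of a member, and miR-34 on alpha-synuclein replicate 3 moves from 4.03 to -0.83.

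In the cat-1 mutant miR-34 gave no signal in either channel at any of 9 spots on the 3 arrays, N2 included. Of the 50 tested probes, miR-34 and miR-235 were the 2 with no signal on any cat-1 array. Since N2 was also at 0 there, these arrays give no comparison and no level. In the pdr-1 mutant it was measured on replicate 2, at 314009 in N2 and 1394558 in the strain, and on replicate 3, at 363790 and 213360 against 2380072 and 1266685. The normalized log2 ratios were 0.26 and 0.13, with a mean of 0.20 ± 0.45 (SE, n = 2; adjusted p = 0.902), where 0 of 48 probes passed (0%), with 2 at an unadjusted p under 0.05. The authors' deposited table lists 0.02 on replicate 2 and 0.41 and 0.27 on replicate 3. Of the 3 spots of the miR-34 probe, 1 gave no signal on any array, which was so for 2 of the 50 tested probes (4%).

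The normalized ratio of miR-71 lay above 0 on 6 of the 7 arrays that measured it, or on 5 of 7 with the sign of pdr-1 replicate 4 turned, and no strain passed the threshold. In the alpha-synuclein strain the spots read 1174196 and 623944 in N2 against 1822637 and 751829 in the strain on replicate 1. Replicate 2 gave 258396 and 538038 against 2563699 and 1474883, and replicate 3 gave 70942 and 69917 against 1485258 and 1662001. A further spot on replicate 2 carried the scanner's S flag and was left out. The N2 signals on replicate 3 were the lowest of the 3 arrays, while its strain signals at these spots lay within the range of the other 2. Normalized log2 ratios were 0.86, 0.39 and 0.04, with a mean of 0.43 ± 0.37 (SE, n = 3; adjusted p = 0.494), all 3 above 0.

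In the cat-1 mutant miR-71 rested on 1 spot per array, 71473 in N2 against 271504 in the strain on replicate 2 and 586483 against 2096984 on replicate 3. A spot with the S flag on replicate 2 was left out. The normalized log2 ratios were 0.31 and 1.55, and on replicate 3 miR-71 ranked 2 of 30 probes. Their mean of 0.93 ± 0.45 (SE, n = 2; 95% interval 0.03 to 1.83) had an unadjusted p of 0.0418 and an adjusted p of 0.541 in limma, where 0 of 48 probes passed (0%), with 4 at an unadjusted p under 0.05. That SE and interval use the spread shared by all probes. The 2 arrays themselves had an SD of 0.88 and a standard error of 0.62. The mean passed when the cat-1 arrays were fitted alone (adjusted p = 0.0374), where 4 of 48 probes passed. The residual SD of all tested probes on those arrays was 0.378, below the 0.88 of miR-71. Without replicate 3 the log2 ratio of miR-71 stood at 0.31. For the cat-1 replicate 4 column, whose own scanner values were not among the files used here, the authors' deposited table lists miR-71 at -0.01, 0.18 and 1.12 for its 3 spots and miR-238 at -0.37.

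In the pdr-1 mutant miR-71 was measured on replicate 3, where N2 spots of 380177 to 495834 stood against strain spots of 1344289 to 2348646, and on replicate 4, at 158137 and 239832 against 991081 and 2566020. The normalized log2 ratios were -0.34 and 1.07, on opposite sides of 0, and on replicate 4 miR-71 ranked 2 of 32 probes, or 31 of 32 with the sign of that array turned. The mean was 0.36 ± 0.45 (SE, n = 2; adjusted p = 0.902), and -0.71 with the sign of replicate 4 turned. Averaged over the 3 strains, miR-71 stood at 0.57 ± 0.25 (95% interval 0.09 to 1.06), the largest of the 3 members with such a mean. Its unadjusted p was 0.0210 and its adjusted p 0.193, with 0 of 46 probes past the threshold (0%) and 8 with an unadjusted p under 0.05. With the sign of pdr-1 replicate 4 turned the mean was 0.22 (adjusted p = 0.770). Centring each array on its median gave 0.76 (adjusted p = 0.0418).

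miR-238 was measured on 4 arrays and did not pass in any strain. On alpha-synuclein replicate 2 it read 395370 and 473502 in N2 against 1436765 and 2043681 in the strain. On replicate 3 it read 58720 and 99582 against 3392936 and 3724994, the highest raw ratio of any member on any array (log2 5.54). After loess the ratios were 0.06 and 0.95, with a mean of 0.51 ± 0.45 (SE, n = 2; adjusted p = 0.494). On cat-1 replicate 2 a spot at 1193899 in N2 and 1391965 in the strain gave -0.57, rank 49 of 54 probes (adjusted p = 0.976). On pdr-1 replicate 3, N2 spots of 314892 to 854585 and strain spots of 1980784 to 2895226 gave -0.04 (adjusted p = 0.983). The cat-1 and pdr-1 values each come from 1 array and have no replicate.

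miR-239a was the member best covered in cat-1, with 6 spots over all 3 arrays, and did not pass in any strain. Its cat-1 spots read 100596 and 116313 in N2 against 311368 and 289675 in the strain on replicate 1. Replicate 2 gave N2 signals of 391332 to 601755 against 666610 to 1061749, and replicate 3 gave 867039 against 941427. The normalized ratios of 0.44, 0.11 and -0.22 gave a mean of 0.11 ± 0.37 (SE, n = 3; adjusted p = 0.976), and -0.06 without replicate 1. In the alpha-synuclein strain it read 310184 against 1985604 on replicate 2 and 136698 against 2598866 on replicate 3. The ratios of 0.63 and -0.85 had opposite signs (mean -0.11 ± 0.45 SE, n = 2; adjusted p = 0.882), and the mean turned to 0.30 with median centring and to 3.46 with no normalization. In pdr-1 it was measured on replicate 3 alone, with N2 spots of 234865 to 273243 and strain spots of 1505531 to 2399278 (0.32 ± 0.64 SE; adjusted p = 0.902).

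**Figure D4:**
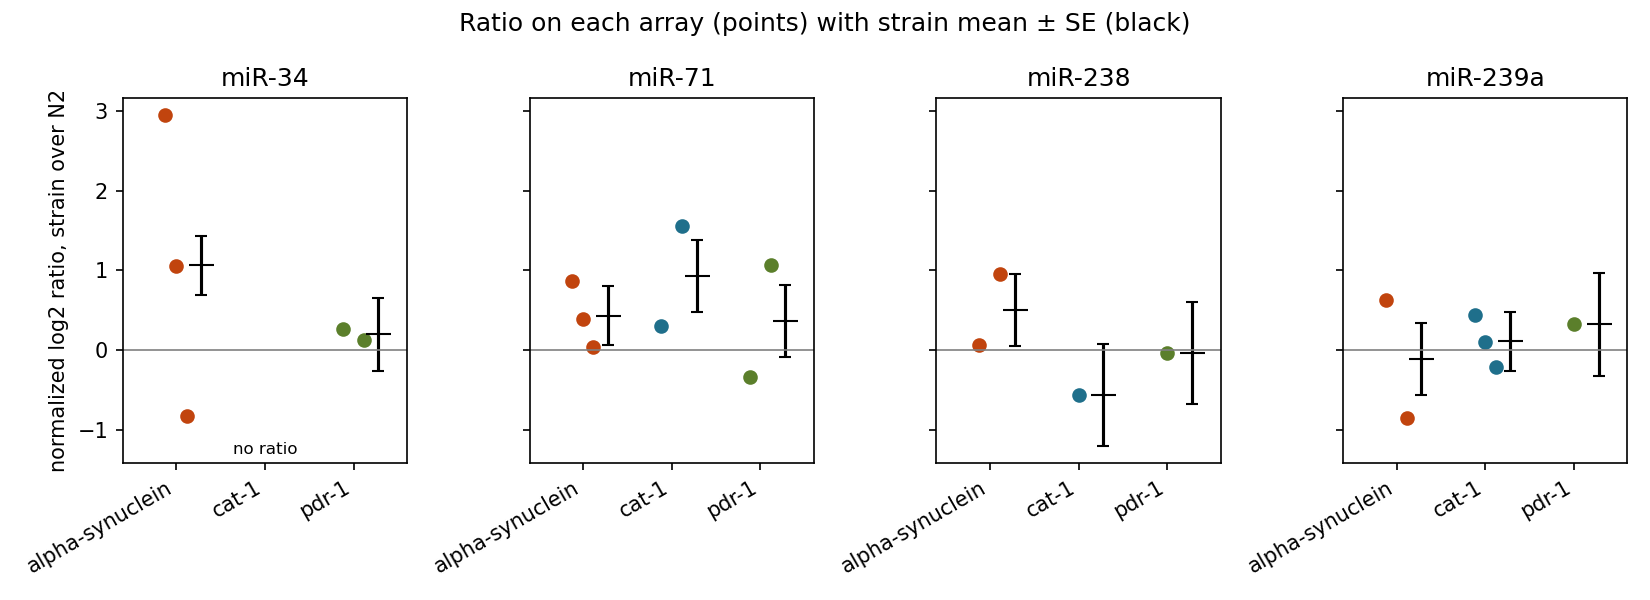
Normalized log2 ratio of strain over N2 on each array (points), with the limma mean and its SE (black) for each member and strain. The 3 miR-34 points in alpha-synuclein lie at 2.96, 1.06 and -0.83, and miR-34 has no ratio in cat-1.

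The spread between spots of a probe on the same array gives the measurement error within arrays. The pooled SD of log2 ratios between spots was 0.455 for miR-34, 0.30 for miR-239a, 0.708 for miR-71 and 0.735 for miR-238, against 0.437 over all tested probes. These rest on 2, 5, 6 and 4 degrees of freedom, against 423 over all tested probes. For miR-34 in alpha-synuclein the spread between arrays (1.89, n = 3) was several times that between spots. Its pdr-1 arrays (SD 0.0956, n = 2) lay closer together than its spots. With so few arrays and spots, these spreads are themselves poorly known. The residual SD between arrays over all probes was 0.805 in alpha-synuclein, 0.469 in pdr-1 and 0.378 in cat-1, while the test used 0.643 for all of them. The shared value is below the spread of the alpha-synuclein arrays and above that of the mutants.

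Signal levels of a probe were ordered within that probe and are a description. They are log2 intensities after loess within arrays and quantile normalization between arrays of the mean intensity of both channels. The N2 mean pools the partner channels of all arrays that measured the probe, so its place in an order can differ from the sign of the ratios, which set a strain against N2 on its own arrays. miR-34 was highest in alpha-synuclein (20.46 ± 1.02 SD, n = 3), followed by N2 (19.12 ± 1.14, n = 5) and pdr-1 (18.91 ± 0.44, n = 2), with no level in cat-1. The order of N2 and pdr-1 rests on the N2 level of alpha-synuclein replicate 3 (21.09). Without that array N2 stood at 18.63 ± 0.33 (n = 4), below pdr-1, and on the pdr-1 arrays themselves N2 stood at 18.72. miR-71 ran from alpha-synuclein (19.59 ± 0.98, n = 3) over cat-1 (19.45 ± 1.52, n = 2) and pdr-1 (19.17 ± 0.10, n = 2) to N2 (18.88 ± 0.68, n = 7). Each neighbour in that order lay within 1 SD of the more variable of the pair. miR-238 had pooled levels of 20.14 in cat-1 (n = 1), 19.97 in pdr-1 (n = 1), 19.78 ± 0.73 in N2 (n = 4) and 19.70 ± 0.69 in alpha-synuclein (n = 2). This order goes against the ratios: on its own arrays N2 stood at 20.71 for cat-1, above the mutant, and at 19.19 for alpha-synuclein, below that strain. miR-239a lay between 19.20 in pdr-1 (n = 1) and 19.46 ± 0.20 in cat-1 (n = 3), with N2 at 19.33 ± 0.64 (n = 6) and alpha-synuclein at 19.42 ± 0.12 (n = 2). Here too the own arrays differed, with N2 at 19.53 for alpha-synuclein and 18.88 for pdr-1. The pooled levels of miR-238 and miR-239a differed by less than the N2 spread.

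No member differed between strains past the threshold. miR-34 was 0.87 ± 0.59 higher on the log2 scale in alpha-synuclein than in pdr-1 (95% interval -0.29 to 2.02; limma, adjusted p = 0.781), in a comparison where 1 of 48 probes passed (2.08%). For miR-71 the differences were -0.50 ± 0.59 for alpha-synuclein minus cat-1, 0.06 ± 0.59 for alpha-synuclein minus pdr-1 and 0.57 ± 0.64 for cat-1 minus pdr-1. For miR-238 the same differences were 1.07 ± 0.79, 0.54 ± 0.79 and -0.53 ± 0.91, and for miR-239a -0.22 ± 0.59, -0.43 ± 0.79 and -0.21 ± 0.74. The adjusted p-values of these 9 differences ran from 0.928 to 0.990. In the contrast of alpha-synuclein with cat-1, 0 of 48 probes passed (0%), with 4 at an unadjusted p under 0.05, and between cat-1 and pdr-1 0 of 46 passed (0%), with 0 at an unadjusted p under 0.05.

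As a group, the 4 microRNAs had a median log2 change of 0.47 in alpha-synuclein, with 3 of 4 above 0 and 1 past the threshold, beside a median of 0.14 and 28 of 50 above 0 over all tested probes. In cat-1 the median of 3 was 0.11, with 2 above 0, beside 0.08 and 27 of 48. In pdr-1 the median of 4 was 0.26, with 3 above 0, beside 0.00 and 24 of 48. With the sign of pdr-1 replicate 4 turned, the pdr-1 median of the members was 0.079, with 2 of 4 above 0, beside -0.01 and 23 of 48. Of 11 other microRNAs linked to ageing or stress in worms, 7 were tested (lin-4, miR-228, miR-80, miR-83, miR-124, miR-60 and miR-233), and 0 passed in either direction in any comparison. Their medians were 0.05 in alpha-synuclein (4 of 7 above 0), 0.11 in cat-1 (5 of 7) and 0.33 in pdr-1 (4 of 6). miR-239b, a close relative of miR-239a, and miR-355 gave no signal on any array, miR-246 gave 1 spot on 1 array and miR-67 gave 4 spots on 3.

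The microRNAs with the most similar ratios over arrays could be named for the 2 members measured on at least 6 arrays. For miR-239a these were miR-229, miR-52 and miR-63, whose log2 ratios differed from it by a root mean square of 0.383, 0.434 and 0.583 over 6 arrays, against a median of 0.650 over 19 comparable probes. For miR-71 they were miR-55 (0.499 over 6 arrays), miR-72 (0.519 over 7) and miR-74 (0.524 over 6), against a median of 1.01 over 29. All probes of an array share its labelling and its normalization. Among the members, miR-34 and miR-239a had the closest ratios, with a root mean square difference of 0.273 over the 3 arrays that measured both. That is fewer than the 6 arrays asked for above, so 0.273 cannot be set beside those values.

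The miR-34 value in alpha-synuclein ranged widely with the processing. It was 3.18 with no normalization (adjusted p = 0.0309), against a median of 1.84 over all tested probes, and 1.13 with median centring (adjusted p = 0.0273). It was 1.01 with a loess span of 0.7 (adjusted p = 0.0694) and 0.33 with scale normalization between arrays (adjusted p = 0.683). It stayed above 0 under all 27 settings that gave a value, and passed in 9 of them. Many of these settings could not move the value and left it at 1.06, so its sign there was fixed. They are the sign of pdr-1 arrays, leaving out arrays with no miR-34 ratio in this strain, and the plain test. So are strains fitted alone, no filter on dim probes, identical arrays counted separately and the median of spots.

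**Figure D5:**
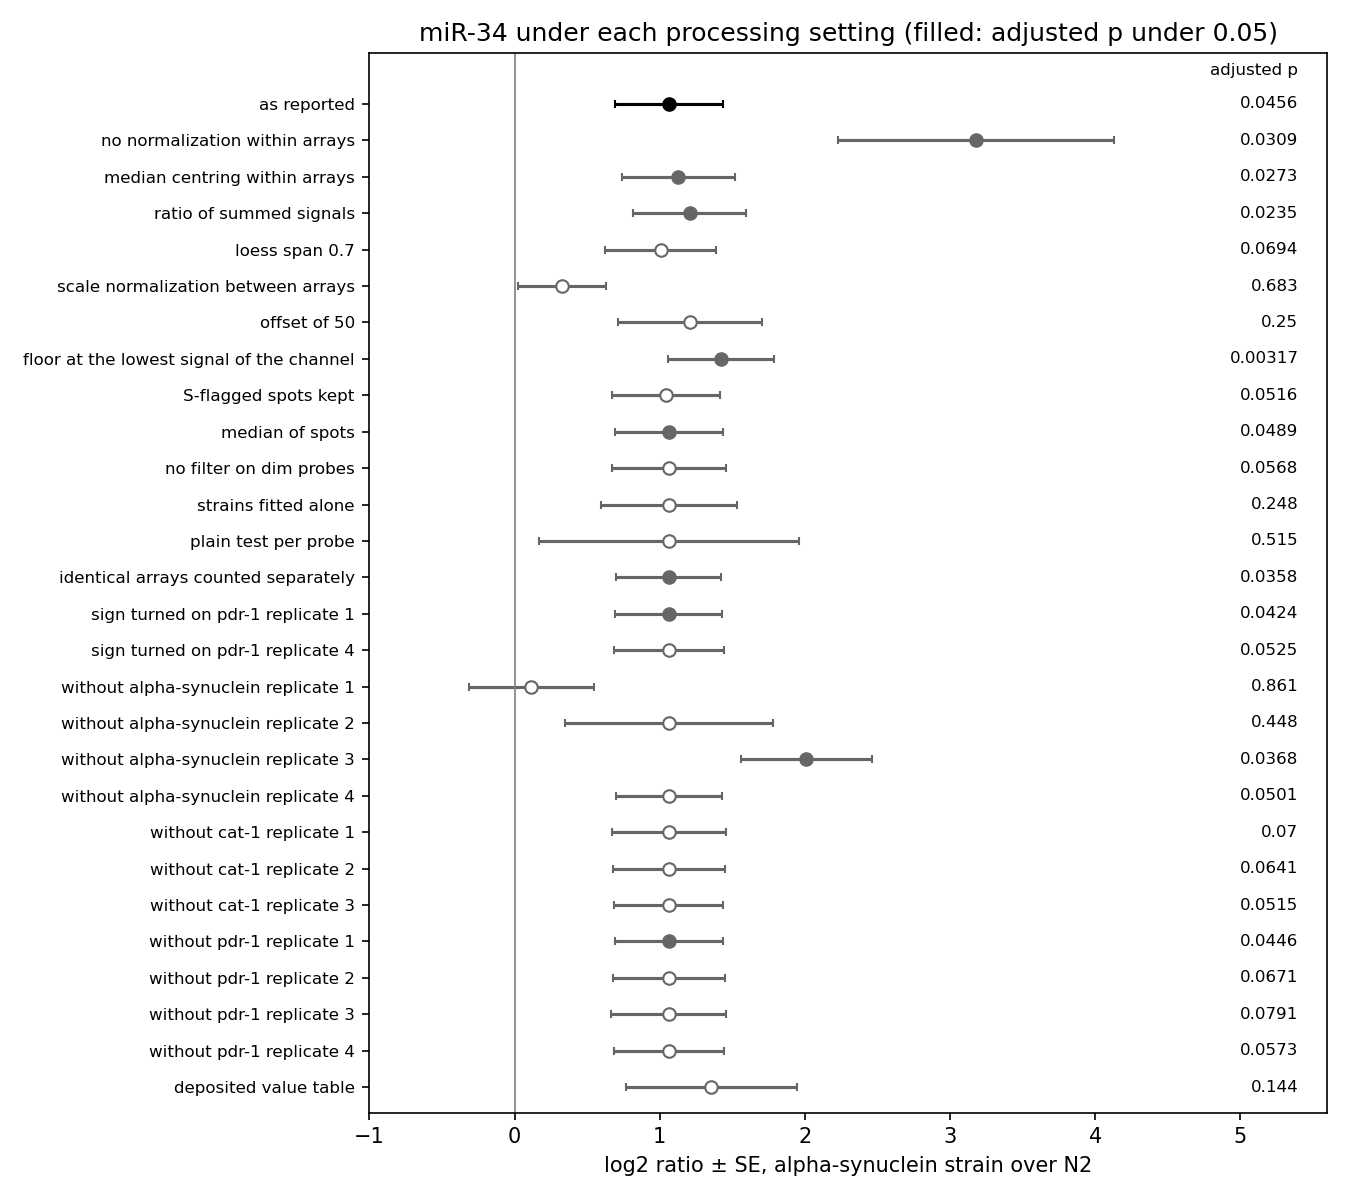
Log2 ratio of miR-34 in alpha-synuclein over N2 with its SE under each processing setting, filled where the adjusted p printed at the right is under 0.05. Values run from 0.12 without alpha-synuclein replicate 1 to 3.18 with no normalization, and 9 of the 27 alternatives are filled.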

How the data were processed

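The deposited scanner files give a signal intensity and a flag per channel for 4608 spots per array, per the file headers. They have no background column, and neither the flags nor how the intensities were made is explained in the sources used here. A signal above 0 was taken as above background. Signal B was read as the strain because the labels list N2 before it. S-flagged spots were not used. Log2 ratios were normalized by loess on the C. elegans spots of each array (span 0.3, 4 iterations) and averaged over spots. For signal levels only, the mean log2 intensity of both channels was then quantile-normalized between arrays. A probe was tested if 4 or more of the 11 distinct arrays gave it a signal, true of 50 of 114. Ratios were fitted with limma 3.58.1 in R 4.3.3 over all 11 arrays, with 1 mean per strain and a shared spread (prior degrees of freedom infinite), and the p-values, two-sided, were adjusted by Benjamini-Hochberg over all tested probes of a comparison at 0.05. N2 was present only as the partner channel, so the ratio against 0 is the test against N2. The planned fit counted 12 arrays, and the identical cat-1 files left 11. The fit was tested on simulated ratios with the real pattern of missing values, while normalization, flags, averaging of spots and filters were not tested that way.

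Values in the authors' deposited table are log2 ratios, as a comparison with the scanner files showed. In 10 of 12 columns the values equal the scanner's log2 ratio, second over first signal, less a constant for the array. For alpha-synuclein replicate 2 (r = 0.721 with the scanner values) and cat-1 replicate 4 (r = 0.597) centring and direction stay unknown. By replicate number, the medians of its alpha-synuclein columns were 0.07, 0.27, -0.06 and 0.40. Those of its cat-1 columns were -0.03, 0.08, 0.03 and 0.13, and those of its pdr-1 columns 0.20, 0.05, 0.19 and -0.03. Same-numbered arrays of different strains correlated at -0.78 to 0.11, so the numbers were not taken to pair the samples.

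The 4 microRNAs, the list of 11 others linked to ageing or stress and the tests were chosen with earlier results of these data known. The 4 are named in every comparison. For each, the 3 tested probes with the lowest root mean square difference of ratios over at least 6 shared arrays are named as well. Of the other list, members past the threshold were to be named, and names beyond that were added after the values were seen. Alternatives concerned normalization, flags, averaging, filters, the model, the sign of pdr-1 arrays, use of the deposited table and leaving out each array. A floor for spots with a signal in 1 channel was chosen after seeing the data, as were N2 levels on each strain's own arrays and without alpha-synuclein replicate 3. In the gene table used for names, 3 of the 4 microRNAs matched a symbol, and miR-239a did not.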

Additional observations from a re-analysis of the deposited data

Results flagged for a closer look

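The normalized N2 level of miR-34 on alpha-synuclein replicate 3, at log2 21.09, lay far above its other 4 N2 levels of 18.34 to 19.10. The deposited N2 signal behind it, 189046, did not stand apart. Loess within arrays and the quantile normalization of mean intensities between arrays both raised the N2 level on that array. It was 1 of 10 groups of values checked for an outlying array, and how often chance alone flags such a group was not tested. Without alpha-synuclein replicate 3 the log2 change of miR-34 was 2.01 in place of 1.06. The cause was not tested.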

How the results depend on the processing

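Over 29 alternatives, the 24 member values that had a mean kept their direction and their side of the threshold in 567 cases, lost the threshold in 18, gained it with the same sign in 8 and changed sign in 44. Alternatives that could not move a value, such as leaving out an array of another strain, are counted among these cases. The 18 losses all concern miR-34 in alpha-synuclein, which passed in 9 of 27 alternatives. The threshold was gained by miR-71 (2.44) and miR-238 (3.76) in alpha-synuclein and by miR-239a in the mean of the strains (2.36) with no normalization. Of the 44 values that changed sign, 2 were also past the threshold, both with no normalization: miR-239a in alpha-synuclein (3.46, adjusted p = 0.0309) and miR-238 in the mean of the strains (2.08, adjusted p = 0.0283). miR-71 in cat-1 gained it with strains fitted alone (0.93) and with the identical arrays counted separately (1.14), and its mean over strains did so with no normalization (2.28), median centring (0.76) and summed signals (0.83). With no normalization, where the median of all tested probes was 1.84, 0.78 and 2.08 in the 3 strains, signs also changed for miR-238 in cat-1 (0.22) and pdr-1 (2.26), miR-71 in the 3 contrasts (0.56, -0.086 and -0.64) and miR-239a in alpha-synuclein minus cat-1 (2.67) and minus pdr-1 (0.63). miR-239a in alpha-synuclein also turned with median centring (0.30), summed signals (0.38), span 0.7 (0.0058), the offset of 50 (0.14), the floor (0.12) and the deposited table (0.61). Its difference from cat-1 turned with median centring (0.12), summed signals (0.17), the offset (0.044), the floor (0.015) and the table (0.40), and its difference from pdr-1 with the table (0.074). miR-71 in alpha-synuclein minus pdr-1 turned with median centring (-0.091), summed signals (-0.10), scale normalization (-0.30) and the floor (-0.023). miR-239a in cat-1 minus pdr-1 turned with scale normalization (0.15), and the miR-238 mean over strains with summed signals (0.047) and the table (0.23). With pdr-1 replicate 4 turned, miR-71 in pdr-1 was -0.71. The cause of these changes was not tested.

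Leaving out each array in turn gave ranges across 0 for miR-239a in alpha-synuclein (-0.85 to 0.63) and cat-1 (-0.057 to 0.27), miR-71 in pdr-1 (-0.34 to 1.07), miR-71 (-1.12 to 0.12) and miR-239a (-0.96 to 0.52) in alpha-synuclein minus cat-1, miR-34 (-0.080 to 1.81), miR-71 (-0.64 to 0.77) and miR-239a (-1.17 to 0.31) in alpha-synuclein minus pdr-1, miR-71 in cat-1 minus pdr-1 (-0.14 to 1.27) and the mean over strains of miR-238 (-0.18 to 0.12) and miR-239a (-0.14 to 0.35). For miR-34 in alpha-synuclein the range was 0.12 to 2.01. Over all tested probes these fits gave 1 to 5 calls in alpha-synuclein, 0 to 1 in alpha-synuclein minus cat-1, 0 to 1 in alpha-synuclein minus pdr-1 and 0 to 1 in the mean of strains.

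Calls in alpha-synuclein, 5 of 50 probes as reported, were 18 with no normalization and 8 with median centring. With a signal in both channels on at least 8 arrays they were 3 of 22 probes. They were 1 with scale normalization, 0 with the offset, 1 with strains fitted alone and 0 with the plain test. In cat-1, 0 as reported, they were 1 with scale normalization, 4 with strains fitted alone and 4 with the identical arrays counted separately. In alpha-synuclein minus cat-1 they were 1 with the floor, 1 with the filter on 8 arrays and 2 with the identical arrays counted separately. In alpha-synuclein minus pdr-1, 1 as reported, they were 0 with no normalization, scale normalization, the offset, the floor, strains fitted alone or the table, and 2 with the identical arrays counted separately. In cat-1 minus pdr-1, 1 passed with scale normalization. In the mean of strains they were 33 with no normalization, 5 with median centring, 5 with summed signals, 2 with the filter on 8 arrays, 2 with the identical arrays counted separately, 1 with pdr-1 replicate 1 turned and 7 with the table. Same-numbered replicates share only a number. With the replicate number as a block there were 3 calls among 32 probes in alpha-synuclein. There, miR-34 in alpha-synuclein minus pdr-1 turned to -0.080 and miR-238 in cat-1 minus pdr-1 to 0.36. Without normalization the signal levels of miR-71 were 17.98 in N2, 20.62 in alpha-synuclein, 19.53 in cat-1 and 20.64 in pdr-1. In the same order those of miR-238 were 18.51, 21.18, 20.41 and 21.14, and those of miR-239a 18.10, 20.77, 19.22 and 20.82. miR-34 was at 18.07 in N2, 21.20 in alpha-synuclein and 20.57 in pdr-1. Before normalization the strain was the brighter channel at 90.8% of all C. elegans spots with both signals. The filter on 8 arrays left no member to test, the plain test was not run for contrasts, and strains fitted alone give no mean of strains. With 1 to 3 arrays behind a member value, small changes are not detectable here.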
